A study of Mus musculus with 24 samples.

Results

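Gastrocnemius muscle of running mdx mice was compared with that of healthy wild-type mice, to describe which transcripts still differed from healthy muscle after 7 weeks of wheel running. The comparison took the 5 arrays labelled as mdx muscle with PBS and running and the 4 arrays labelled as untreated wild type, 9 of the 24 arrays of the study. The mdx mice carried the mdx strain label, were injected intraperitoneally with PBS once a week and ran voluntarily in wheels. The wild-type mice were C57Bl/10ScSnJ and, per the labels, untreated. They are described neither as injected nor as runners, so genotype, injection and running cannot be told apart in this comparison. All mice were male, with 1 muscle per array, and the age label of 6 to 7 weeks was the same in every group. For mice that ran for 7 weeks that age can only be the one at the start, and the age at sampling is not given in the sources used here. No treatment time is given for wild type, so the age at sampling may also differ between the groups. If it does, it cannot be told apart from the other differences. A further 5 arrays from mdx mice given PBS without running stand beside the comparison as the sedentary reference. They share the wild-type controls with it, so changes of running and sedentary mdx against wild type are set side by side without a test of their likeness.

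The mdx mouse lacks dystrophin, the protein that ties the actin skeleton of a muscle fibre through a membrane complex to the matrix outside it. Fibres without it tear during contraction, calcium leaks in, and fibres die in waves. Macrophages clear the debris, satellite cells divide and fuse into new fibres that first make fetal versions of contractile proteins and acetylcholine receptors, and the matrix between fibres thickens. Fibres with centrally placed nuclei and a matrix richer in collagen are the lasting marks of that cycle in limb muscle.

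Bead arrays gave a signal for 25697 probes. Each wild-type array detected 10404 to 10634 probes and each running array 10995 to 11898, so more probes were above background on every running array. The part of this difference in the results was not tested. Signal levels below are log2 values after background correction and quantile normalization, and a change is a difference of group means on that scale with the standard error of the fitted model. Correlations between arrays over 8945 genes were 0.965 to 0.990 within wild type, 0.977 to 0.992 within running mdx, and 0.930 to 0.966 between the groups. Dmd itself could not be used to check the genotype, since its 2 probes were detected on no array, wild type included. Here and below, a gene detected on no array is not thereby shown to be silent. Markers of skeletal muscle were abundant in both groups, with a mean over 7 genes of 14.64 to 14.73 in wild type and 14.60 to 14.72 in running mdx, and none of the 7 passed the test. With array medians taken over the probes kept for testing all 7 fell (median -0.40). Transcripts typical of hepatocytes varied widely inside both groups. The mean of the 6 tested genes was 8.76, 12.01, 8.45 and 4.86 on the wild-type arrays and 8.99, 10.56, 5.29, 7.02 and 5.27 on the running arrays. The median change of these 6 genes was -1.16. None of them passed the test between the groups, and albumin, Alb, was not among the genes tested.

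Running mdx muscle differed from wild type in 3108 of 8945 genes, which is 34.7%, by limma with Benjamini-Hochberg adjustment and a limit of 0.05. Of these, 1595 genes (17.8%) were higher and 1513 (16.9%) lower, so 51.3% of the calls were upward. That split depended on the scaling. It was 75.8% upward with arrays scaled to equal medians over all probes and 32.2% with medians taken over the probes kept for testing, settings that put the median change of all genes at 0.09 and -0.18 in place of -0.04. Below they are called the all-probe and the kept-probe scaling, and their counts are given beside the lists they moved most. Changes of at least 2-fold were more one-sided, with 456 genes (5.1%) higher and 106 (1.19%) lower. A gene was tested if its probe was detected on at least 4 of the 24 arrays, and only 4 of these were wild type. One detected only in wild type thus needed all 4 of them, and one detected only in mdx any 4 mdx arrays. The part of this filter in the 2-fold split was not tested. Arrays of the 2 groups did not overlap in 2474 genes (27.7%). The counts in each list below stand beside these shares of all genes, 17.8% higher, 16.9% lower and 27.7% without overlap. In sedentary PBS mdx, 1725 genes (19.3%) were higher and 1651 (18.5%) lower than in the same wild-type arrays. Between running and sedentary mdx themselves 1 gene of 8945 passed (0.0112%), and 297 had an unadjusted p under 0.05. In bulk muscle, fewer cells of a type and less RNA per cell cannot be told apart, and the same holds for more of either.

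**Figure D1:**
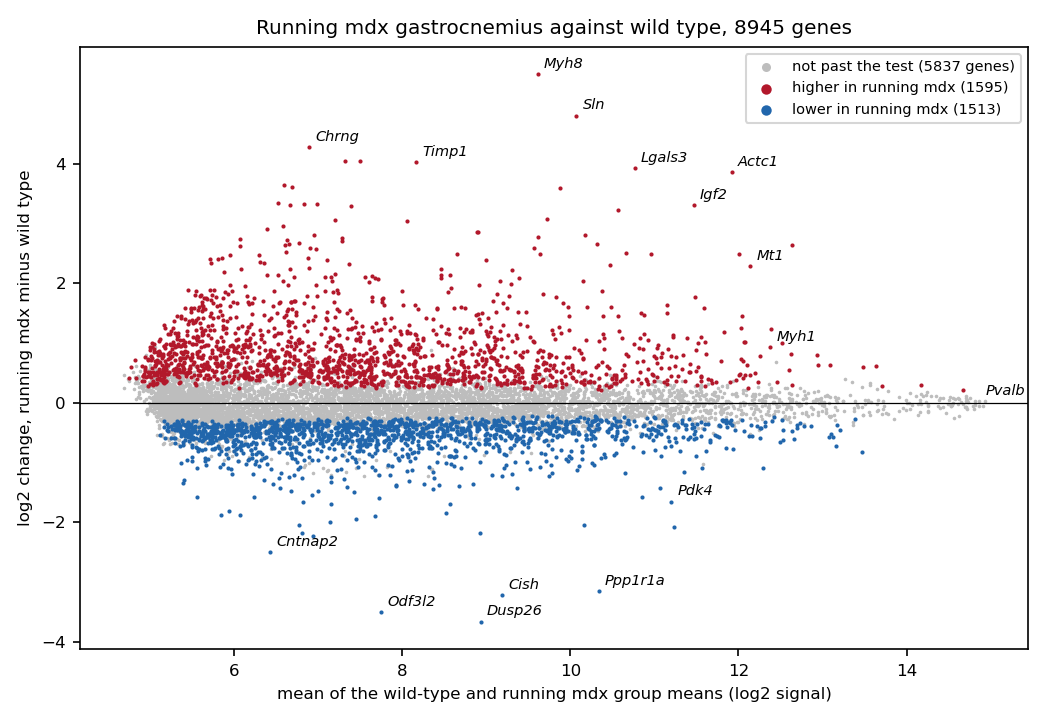
Each point is 1 of 8945 genes. The horizontal axis is the mean of the wild-type and running mdx group means (log2 signal) and the vertical axis the log2 change of running mdx over wild type; red genes were higher and blue genes lower at an adjusted p under 0.05, grey genes did not pass. Rises reach 5.50 at Myh8 and falls reach -3.66 at Dusp26, and at least 2-fold rises (456) outnumber at least 2-fold falls (106).

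Fetal muscle and regeneration genes stood well above wild type and included the largest single rise, in Myh8. A rise was called in 14 of 16 tested members and a fall in none. The median change was 2.00 against -0.04 over all genes, and 12 of the 16 had no overlap between the arrays. Myh8, the perinatal myosin heavy chain that fibres make before birth and again while regenerating, was at 6.81, 6.75, 6.57 and 7.33 on the wild-type arrays and at 12.11, 12.35, 12.44, 13.11 and 11.80 on the running arrays. The lowest running array lay far above the highest wild-type array, and the change of 5.50 ± 0.32 corresponds to 45.2-fold (adjusted p = 9.9e-12). Actc1, the cardiac alpha-actin that developing skeletal fibres use, stood at 10.10, 9.61, 9.86 and 10.39 in wild type and at 13.45, 13.94, 13.86, 13.77 and 14.24 in running mdx. The groups were far apart again, 14.6-fold (3.86 ± 0.17, adjusted p = 8.9e-14). Igf2, a fetal growth factor of muscle, rose from 9.81 ± 0.12 (SD, n = 4) to 13.12 ± 0.39 (SD, n = 5), or 9.90-fold. Myl4, an atrial and embryonic myosin light chain, rose by 2.49 ± 0.27.

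The myogenic regulators followed in smaller steps. Myog, the transcription factor of differentiating myoblasts, was at 6.20, 5.60, 5.29 and 5.55 in wild type and at 8.82, 8.09, 8.61, 8.11 and 6.83 in running mdx (2.43 ± 0.32, adjusted p = 3e-06). Running replicate 5 was the lowest of its group and still above every wild-type array; the gene's other probe moved the other way. Myod1, which commits cells to the muscle lineage, rose by 0.97 ± 0.20, and the activin antagonist Fst by 0.65 ± 0.18 (adjusted p = 0.0079, but 0.053 without wild-type replicate 4). Des and Myf6, at 0.02 and 0.07, were the members that did not pass. Pax7, the satellite cell factor, was detected on no array. In sedentary mdx also 14 of 16 members rose, with a median of 2.06.

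Acetylcholine receptor subunits rose with them. Mature fibres cluster the receptor at the nerve ending with an epsilon subunit, whereas fetal, denervated and regenerating fibres make the gamma form. Chrng, the gamma subunit, was detected on none of the wild-type arrays (4.70, 4.63, 4.68 and 5.01) and on each running array (9.63, 9.26, 9.41, 9.38 and 7.51). Every running array was above the wild-type range, replicate 5 by least, and measured against the detection limit the gene was at least 11.3-fold higher (adjusted p = 8e-09). Chrna1, the alpha subunit, was at 8.11, 8.16, 8.23 and 8.29 in wild type and at 10.58, 10.46, 10.74, 10.56 and 9.75 in running mdx. Its groups did not overlap, replicate 5 was again the lowest running array, and the change was 2.22 ± 0.22 (adjusted p = 6.8e-08). Chrnb1, the beta subunit, rose by 1.46 ± 0.12, and Ncam1, an adhesion molecule that spreads over denervated and regenerating fibres, by 2.12 ± 0.20. In the wider neuromuscular junction list, to which these 4 genes also belong, 6 of 12 tested members rose and none fell (median 0.50); sedentary mdx gave 6 of 12 as well (median 0.40).

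The promoters of the 2 receptor subunits with the largest rises are shown because both hold the E-box CAGCTG, a form of the hexamer that myogenic factors such as Myog and Myod1 can bind. Sequences are RefSeq windows on GRCm38.p6, from 250 bases before to 50 bases after the gene start, read 5′ to 3′ on the gene's strand, with CAGCTG in capitals.
Chrng: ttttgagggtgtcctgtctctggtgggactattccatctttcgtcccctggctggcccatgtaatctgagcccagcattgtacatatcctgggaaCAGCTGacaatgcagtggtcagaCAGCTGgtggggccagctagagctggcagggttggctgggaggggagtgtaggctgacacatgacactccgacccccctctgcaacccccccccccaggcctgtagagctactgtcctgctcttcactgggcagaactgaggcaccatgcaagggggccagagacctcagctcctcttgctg
Chrna1: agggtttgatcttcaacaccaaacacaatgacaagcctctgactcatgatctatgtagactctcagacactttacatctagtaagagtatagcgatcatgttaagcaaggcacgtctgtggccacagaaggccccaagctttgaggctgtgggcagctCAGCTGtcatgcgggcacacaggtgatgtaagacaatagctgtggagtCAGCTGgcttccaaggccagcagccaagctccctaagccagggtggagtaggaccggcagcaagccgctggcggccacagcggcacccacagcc
The Chrng window is chr1:87205561-87205860 on the plus strand, and its matches begin 155 and 132 bases before the start. The Chrna1 window is chr2:73580289-73580588 on the minus strand, with matches 92 and 44 bases before the start. CAGCTG reads the same on both strands and occurs in 16.3% of 32851 such windows. Of the 16 tested regeneration genes 11 were in the table, and 3 of these 11 held it. A match is a description of these letters and not a mapped site.

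Genes of other kinds changed on the same scale. Sln encodes sarcolipin, a small inhibitor of the calcium pump of the sarcoplasmic reticulum. It was at 7.51, 7.86, 8.03 and 7.26 in wild type and at 12.54, 12.53, 12.60, 12.09 and 12.61 in running mdx, 28.0-fold higher (4.81 ± 0.26, adjusted p = 2.5e-12). The running arrays lay close together except replicate 4, which was lower than the other 4 and still far above wild type. Sln belongs to the calcium handling list, in which 4 of 19 tested members rose and 1 fell, with a median of 0.16. With the kept-probe scaling 3 rose and 4 fell (median -0.11). In the main setting 17.8% of all genes were higher and 16.9% lower. Casq2, a calcium store protein of slow and cardiac fibres, rose by 1.77 ± 0.27 and the slow pump Atp2a2 by 1.09 ± 0.20. Ankrd1, a titin-binding protein made under stretch, rose from 8.18 ± 0.13 to 11.27 ± 0.33 (3.09 ± 0.16), while its list of mechanical stress genes held 3 of 12 that rose and 1 that fell, or 1 and 3 with the kept-probe scaling. The neuropeptide gene Gal rose by 3.32 ± 0.72 and Kcne1l, a potassium channel subunit undetected in wild type, was at least 7.40-fold higher. Gm5797, likewise undetected in wild type, was at least 6.35-fold higher.

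**Figure D2:**
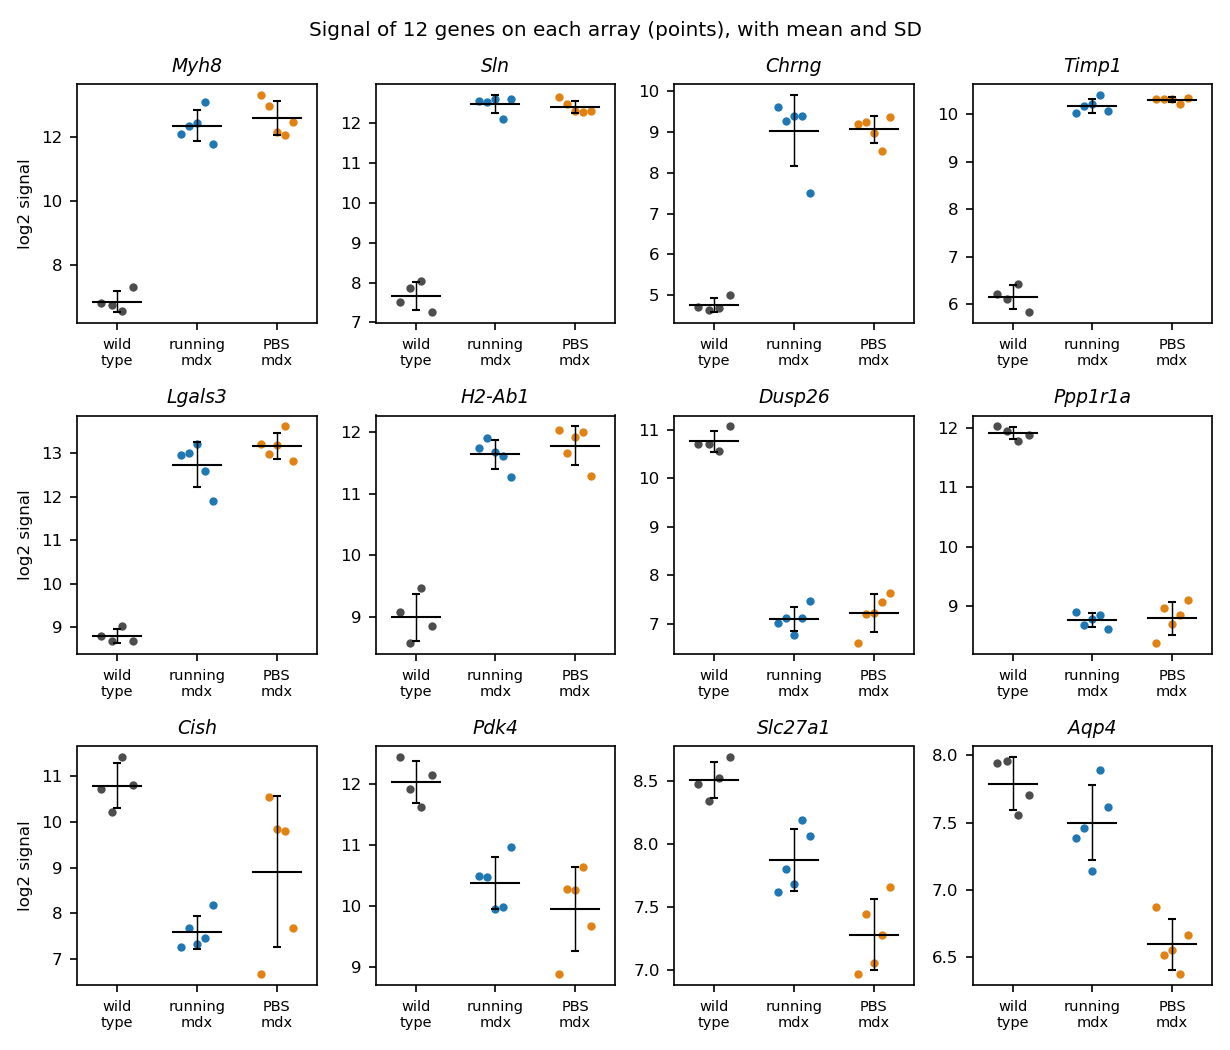
Log2 signal of 12 genes on each array, with points for single arrays, a horizontal line for the group mean and a bar for the SD (wild type 4 arrays, running and PBS mdx 5 each). Running and PBS mdx lie together and away from wild type in most panels. In Aqp4 the running arrays overlap wild type, in Slc27a1 they lie between the other groups, and in Cish the PBS arrays spread from 6.67 to 10.56.

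Transcripts of extracellular matrix genes were higher in nearly every member tested. Of 26 tested extracellular matrix genes 23 rose and none fell, with a median change of 1.16, and 22 did not overlap. Timp1, an inhibitor of matrix metalloproteases, was at 6.22, 6.10, 6.43 and 5.83 in wild type and at 10.02, 10.16, 10.23, 10.40 and 10.06 in running mdx. That is 16.3-fold with a narrow spread inside the running group (4.03 ± 0.30, adjusted p = 6.1e-10). Col1a1, a chain of the main fibrillar collagen, was at 7.61, 7.65, 8.17 and 9.11 in wild type and at 9.28, 10.20, 10.31, 10.22 and 10.90 in running mdx. The highest wild-type array, replicate 4, came close to the lowest running array, replicate 1, and the change was 2.05 ± 0.28 (adjusted p = 4.8e-06). Col3a1, the collagen of early scar, rose by 2.02 ± 0.27 and the membrane protease Mmp14, which cleaves collagen, by 2.10 ± 0.14. Mmp3, a protease undetected in wild type, was at least 5.80-fold higher. The members that did not pass were Fmod at -0.09, Ltbp1 at 0.04 and Ccn2 at 0.09, the last a growth factor often used as a mark of TGF-beta activity. Sedentary mdx also had 23 of 26 higher (median 1.25).

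Among genes of the TGF-beta and activin pathway, which drives fibrosis and limits muscle mass, 6 of 22 rose and 2 fell. The list holds ligands and receptors, BMP members included, and also antagonists, Smad and Id genes and a protease. The median of -0.01 lay near that of all genes and turned to 0.17 with the all-probe scaling. The ligand Tgfb1 rose by 1.47 ± 0.26, its receptor Tgfbr2 by 0.89 ± 0.12, Fstl1 by 1.21 ± 0.18 and the procollagen protease Bmp1 by 0.89 ± 0.13. Mstn, the myostatin gene, was detected on no array.

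The macrophage list had the highest median of the lists plotted here. A rise was called in 15 of 16 tested members and a fall in none. The median was 2.41, arrays did not overlap in 15, and the list mean ran from 6.28 to 6.68 in wild type and from 8.31 to 9.11 in running mdx. Lgals3, a galactose-binding lectin of activated macrophages, was at 8.80, 8.69, 9.04 and 8.67 in wild type and at 12.95, 13.00, 13.21, 12.59 and 11.91 in running mdx. All running arrays were high, replicate 5 the least, and the gene was 15.2-fold higher (3.93 ± 0.35, adjusted p = 1.2e-08). Adgre1, a surface antigen widely used to mark mouse macrophages, rose from 5.32 ± 0.32 to 7.98 ± 0.29 (2.65 ± 0.27). Trem2, a lipid-sensing receptor with no detected signal in wild type, was at least 8.65-fold higher, Gpnmb rose by 3.60 ± 0.37 and Ms4a7 by 4.06 ± 0.40. The haemoglobin receptor Cd163 of resident macrophages, at 0.10, was the member that did not pass. Itgam, Msr1 and C5ar1, also on the list, were detected on no array and were not tested. Beyond the list, the Fc receptor gene Fcgr4 was at least 7.79-fold higher and Ly86 rose by 3.33 ± 0.34. In sedentary mdx 15 of 16 rose, with a median of 2.70; between running and sedentary mdx the median was -0.19, all 16 values were negative, and none passed.

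The signals that recruit leukocytes and mark debris rose beside them. Of 20 chemokine and cytokine genes 15 rose and Il1r1 fell (median 0.97). Ccl8, a monocyte attractant, was at 5.13, 4.78, 6.26 and 5.00 in wild type, detected there on 1 array, and at 9.64, 9.70, 9.64, 9.27 and 8.43 in running mdx. Wild-type replicate 3 and running replicate 5 were the nearest to each other and still well apart (4.04 ± 0.44, adjusted p = 1.7e-07). Cxcl16 rose by 2.59 ± 0.31, and Ccl4, undetected in wild type, was at least 2.62-fold higher. Of 10 complement genes 9 rose (median 0.78), led by the 3 chains of C1q, the protein that tags debris. C1qb rose from 8.23 ± 0.56 to 11.00 ± 0.41 (2.77 ± 0.34), C1qc by 2.40 ± 0.23 and C1qa by 2.08 ± 0.29, while Cfi, at -0.81, did not pass. Of 19 lysosome genes 13 rose and none fell (median 0.82), among them the proteases Lgmn (2.04 ± 0.24) and Ctsk (1.99 ± 0.22), the growth factor Grn (1.82 ± 0.23) and the leukocyte membrane protein Laptm5 (2.81 ± 0.21).

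Class II antigen presentation genes rose in nearly every member. Cells that present antigen to helper T cells load peptides onto paired alpha and beta chains with the help of the invariant chain Cd74 and the H2-DM exchange factor. Of 8 tested genes 7 rose (median 2.02) and the same number did not overlap; H2-Ob, at -0.24, did not pass. The beta chain H2-Ab1 was at 9.07, 8.57, 9.47 and 8.84 in wild type and at 11.75, 11.90, 11.69, 11.62 and 11.27 in running mdx. Every running array lay above every wild-type array, 6.31-fold on average (2.66 ± 0.22, adjusted p = 4.1e-09). The alpha chain H2-Aa was at 6.86, 7.18, 8.08 and 7.26 against 9.27, 10.11, 9.49, 9.72 and 9.31, with wild-type replicate 3 again the highest of its group (2.24 ± 0.25). Cd74 rose from 9.40 ± 0.43 to 11.92 ± 0.17 (2.51 ± 0.16) and H2-Eb1 by 2.59 ± 0.18. Sedentary mdx had 7 of 8 higher as well (median 2.12).

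The promoters of the alpha chain H2-Aa and the beta chain H2-Eb1 are shown, since class II promoters share a module whose Y box is an inverted CCAAT. The windows follow the same RefSeq convention, with CCAAT and its reverse complement ATTGG in capitals.
H2-Aa: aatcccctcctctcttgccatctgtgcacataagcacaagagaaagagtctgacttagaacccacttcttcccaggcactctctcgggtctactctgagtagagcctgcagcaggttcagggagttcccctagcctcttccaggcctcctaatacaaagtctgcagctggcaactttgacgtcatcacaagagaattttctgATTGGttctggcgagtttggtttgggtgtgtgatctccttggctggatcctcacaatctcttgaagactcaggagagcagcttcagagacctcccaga
H2-Eb1: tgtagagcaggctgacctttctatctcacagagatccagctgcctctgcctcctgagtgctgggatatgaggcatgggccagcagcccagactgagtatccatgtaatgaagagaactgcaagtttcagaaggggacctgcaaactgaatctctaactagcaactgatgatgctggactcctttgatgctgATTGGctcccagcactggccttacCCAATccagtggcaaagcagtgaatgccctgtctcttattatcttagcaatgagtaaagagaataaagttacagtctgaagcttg
The H2-Aa window is chr17:34287774-34288073 on the minus strand, and ATTGG begins 48 bases before the start. The H2-Eb1 window is chr17:34305617-34305916 on the plus strand, with ATTGG 59 and CCAAT 35 bases before the start. On either strand the motif occurs in 37.4% of all 32851 windows. Among the 8 tested class II genes 5 were in the table, and all 5 held it in at least 1 window; these are letters in a window, not evidence of binding.

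Interferon-induced genes mostly rose too. Of 15 tested genes 11 rose and none fell (median 0.60), against 8 of 15 in sedentary mdx (median 0.53). Oasl2, an antiviral synthetase-like protein, was at 5.65, 5.76, 6.05 and 6.50 in wild type and at 8.38, 7.70, 8.61, 7.51 and 7.64 in running mdx. Running replicates 1 and 3 were the highest, and no running array reached down to wild type (1.98 ± 0.23, adjusted p = 5.9e-07). The ubiquitin-like protein Isg15 rose by 1.45 ± 0.31 and the membrane protein Ifitm3 by 1.11 ± 0.15. The regulator Irf7 was undetected in wild type, so its change of 1.40 ± 0.31 starts from background signal and its size is uncertain. The difference between running and sedentary mdx, 0.25 ± 0.22 for Oasl2 with a 95% interval of -0.21 to 0.70, did not pass for any member.

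Mast cell proteases were higher in all 4 tested genes, which did not overlap between the groups. Cpa3, the carboxypeptidase of mast cell granules, was at 6.17, 6.00, 6.38 and 6.53 in wild type and at 7.40, 7.66, 7.37, 7.40 and 7.55 in running mdx. The running arrays were close to each other and above wild type throughout (1.20 ± 0.14, adjusted p = 5.8e-07). Mcpt4 rose by 1.23 ± 0.18, Cma1 by 1.25 ± 0.21 and Tpsb2 by 1.09 ± 0.20. In sedentary mdx the same 4 genes rose by 0.95 ± 0.18 (Mcpt4), 1.10 ± 0.21 (Cma1), 0.71 ± 0.20 (Tpsb2) and 0.90 ± 0.14 (Cpa3). Other leukocyte and tissue lists had few tested members. Of the neutrophil genes S100a8 was at least 2.09-fold higher and Mmp9 did not pass, of T and B cell genes Cd79b alone was tested and did not pass, and of the erythroid genes neither tested member passed. Schwann cell Mbp fell by 1.21 on the log2 scale, with 1 of its 2 other probes moving the other way, and adipocyte Lep fell by 1.27.

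**Figure D3:**
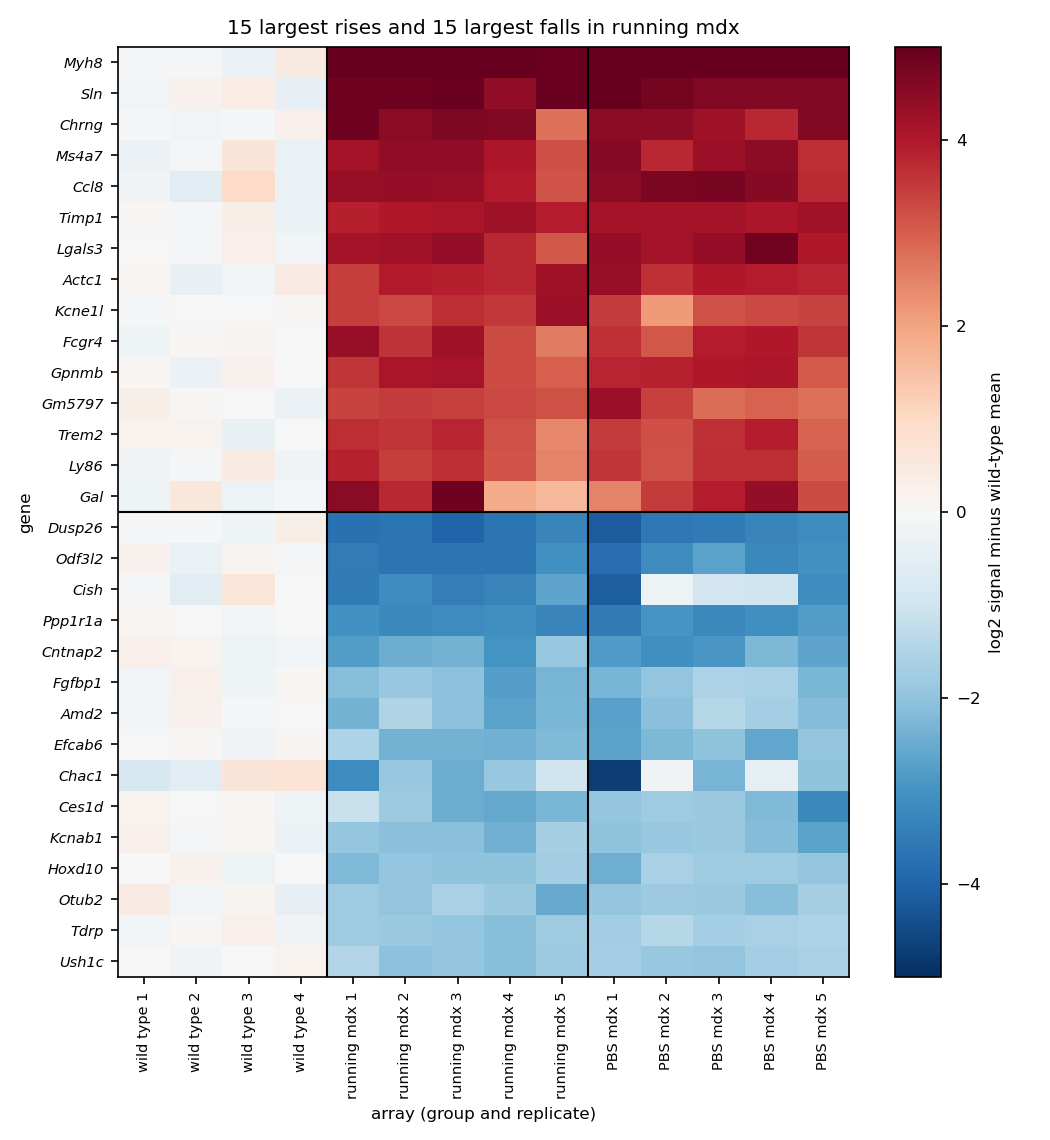
The 15 largest rises and 15 largest falls in running mdx whose arrays do not overlap with wild type, on each of 14 arrays, coloured by log2 signal minus the wild-type mean (red higher, blue lower; colours saturate at 5). Running and PBS mdx columns resemble each other in most rows, while Cish and Chac1 vary among the PBS arrays.

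Falls of at least 2-fold were fewer than rises. Dusp26, a dual-specificity phosphatase, was at 10.71, 10.71, 10.57 and 11.07 in wild type and at 7.02, 7.13, 6.77, 7.12 and 7.47 in running mdx. The groups stood far apart with little spread, 12.7-fold lower (-3.66 ± 0.18, adjusted p = 6.2e-13). Ppp1r1a, inhibitor 1 of protein phosphatase 1, was at 12.03, 11.95, 11.78 and 11.89 against 8.90, 8.69, 8.78, 8.86 and 8.61. This was the fall with the lowest adjusted p among the named genes, 8.9e-14, at 8.83-fold (-3.14 ± 0.14). Odf3l2 was at 9.73, 9.19, 9.65 and 9.44 in wild type and between 5.84 and 6.46 in running mdx (-3.50 ± 0.29). Cntnap2, known for gathering potassium channels on axons, fell from 7.68 ± 0.23 to 5.18 ± 0.42 and was detected on 2 of the 5 running arrays.

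Cish, a cytokine-induced inhibitor of STAT5 signalling, had the largest standard error among the named falls. It was at 10.73, 10.22, 11.42 and 10.81 in wild type and at 7.27, 7.69, 7.32, 7.46 and 8.18 in running mdx, a fall with no overlap (-3.21 ± 0.80, adjusted p = 0.0031). The sedentary mdx arrays spread from 6.67 to 10.56, and their change of -1.88 ± 0.80 did not pass (adjusted p = 0.067). The standard error pools the spread inside all 5 groups of the model, the 2 not shown here included. Running and sedentary mdx differed by -1.33 ± 0.76, with an interval of -2.89 to 0.23, and that difference did not pass either.

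The other large falls covered several functions. The homeobox gene Hoxd10 fell from 8.13 ± 0.20 to 6.15 ± 0.18, and the potassium channel subunit Kcnab1 fell by 2.04 on the log2 scale. Changes were -2.23 ± 0.20 in the growth factor carrier Fgfbp1, -2.05 ± 0.27 in the lipase Ces1d, -1.95 ± 0.18 in the deubiquitinase Otub2, -2.18 ± 0.18 in Efcab6 and -1.90 ± 0.14 in Tdrp. Amd2, an enzyme of polyamine synthesis, fell by 2.18, though its probe may also read its near-identical relative Amd1. The scaffold gene Ush1c was detected on no running array and was at least 2.82-fold lower. Chac1, a glutathione-degrading enzyme, was at -2.08 ± 0.68 (adjusted p = 0.02), a call lost without running replicate 1 (adjusted p = 0.053) or wild-type replicate 3 (0.065) or 4 (0.061).

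The membrane complex that dystrophin anchors changed modestly. Of 12 tested members 5 rose and 1 fell, with a median of 0.22. With the kept-probe scaling 3 rose and 2 fell (median -0.03). Lama2, the laminin chain outside the fibre, was at 7.38, 7.37, 7.41 and 7.61 in wild type and at 8.11, 8.26, 8.38, 8.49 and 8.21 in running mdx. The integrin Itga7, a second laminin receptor, was at 8.57, 8.50, 8.66 and 8.96 against 9.27, 9.45, 9.48, 9.56 and 9.46. Neither gene overlapped between the groups, with changes of 0.85 ± 0.13 (Lama2, adjusted p = 1.6e-05) and 0.77 ± 0.14 (Itga7, adjusted p = 0.00013). Dystrobrevin beta, Dtnb, fell by 0.47, and dystrobrevin alpha, Dtna, rose by 0.44 ± 0.10, a call lost with the mean of its probes (0.21, adjusted p = 0.058), of which 1 of the 3 others moved the other way.

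Utrophin and dystroglycan did not pass in running mdx. Utrn, the dystrophin homologue that can take its place, was at 6.00, 5.48, 5.90 and 5.68 in wild type and at 5.02, 5.85, 5.79, 5.26 and 5.49 in running mdx, near the detection limit and overlapping (-0.28 ± 0.17, adjusted p = 0.20). In sedentary mdx Utrn fell by 0.46 (adjusted p = 0.034). Dag1, dystroglycan, was at 0.29 ± 0.12 (adjusted p = 0.064) with overlapping arrays, while in sedentary mdx it rose by 0.49 ± 0.12. Of 13 membrane repair genes, which patch torn membranes, 8 rose and none fell (median 0.52), or 5 and 1 with the kept-probe scaling. Anxa2, a calcium-dependent membrane-binding annexin, was at 11.39, 11.16, 11.18 and 11.18 in wild type and at 12.47, 12.50, 12.72, 12.27 and 12.14 in running mdx, without overlap (1.19 ± 0.19, adjusted p = 2.5e-05). Anxa5 rose by 1.09 ± 0.16 and the scaffold Ahnak by 0.82 ± 0.13.

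**Figure D4:**
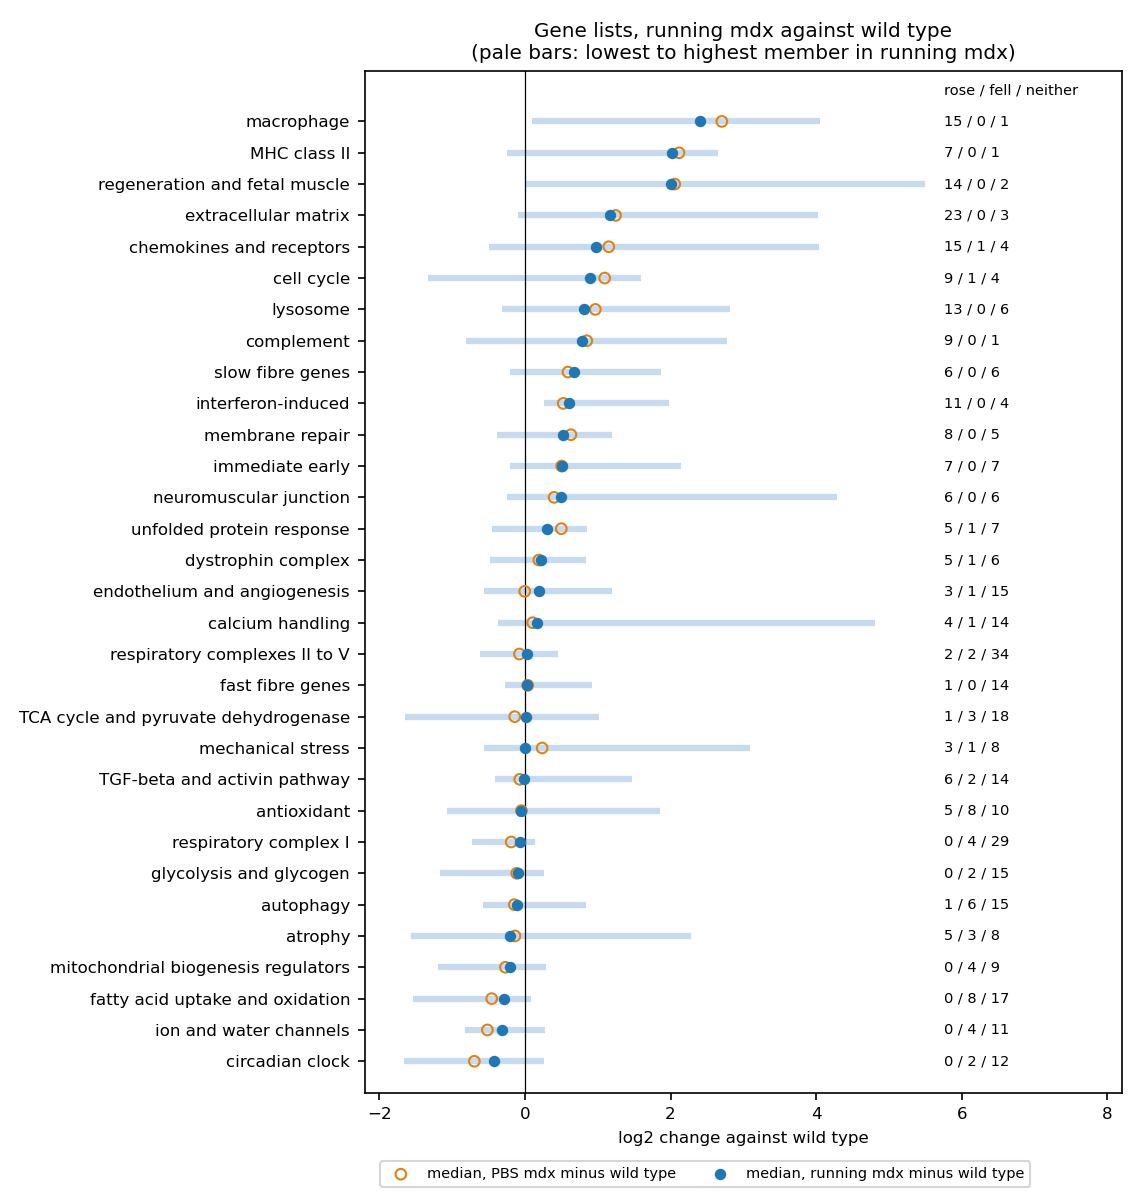
Gene lists in order of their median log2 change in running mdx over wild type (filled points), with the median in PBS mdx (open points), the range from the lowest to the highest member in running mdx (pale bars), and the number of members that rose, fell or did neither in running mdx. Of the lists plotted, the macrophage (2.41), class II (2.02) and regeneration (2.00) medians are the highest, and the circadian (-0.43), ion channel (-0.31) and fatty acid (-0.28) medians the lowest. Not plotted are the marker lists of skeletal muscle, hepatocytes, T and B cells, neutrophils, erythroid cells, Schwann cells, adipocytes and mast cells. Among these, hepatocyte (-1.16), adipocyte (-0.93) and Schwann cell (-0.75) markers had lower medians still.

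Slow fibre genes held several rises, and the counts for slow and fast fibre genes depended on the scaling. Of 12 slow fibre genes 6 rose and none fell (median 0.67), or 5 and 2 with the kept-probe scaling (median 0.44). In sedentary mdx 6 of the 12 rose and 2 fell. Tnni1, slow troponin I, was at 6.59, 7.13, 7.33 and 7.21 in wild type and at 9.16, 8.94, 8.69, 9.60 and 8.27 in running mdx, clearly separate (1.87 ± 0.30, adjusted p = 3.1e-05). Tnnt1, slow troponin T, rose by 1.25 ± 0.25, whereas Myh7, the myosin of slow fibres, did not pass at 0.73 ± 0.45 (adjusted p = 0.22) and was detected on 2 wild-type arrays. Of 15 fast fibre genes only Myh1 rose and none fell (median 0.03). The all-probe scaling gave 1 that fell (median -0.10), and the kept-probe scaling gave 12 (median -0.37). Myh1, the myosin of type IIx fibres, was at 11.81, 11.80, 12.04 and 12.02 in wild type and at 12.49, 12.70, 12.64, 13.10 and 13.28 in running mdx. Running replicates 4 and 5 were the highest and the groups did not overlap (0.93 ± 0.15, adjusted p = 3.7e-05). In sedentary mdx the change was 0.42 ± 0.15 (adjusted p = 0.029). The difference between the mdx groups, 0.50 ± 0.14 with an unadjusted interval of 0.21 to 0.80, did not pass over all genes (adjusted p = 0.98). Myh4, the IIb myosin, was at -0.21 ± 0.18 and parvalbumin, Pvalb, at 0.03 ± 0.06, neither past the test; Pvalb turned to -0.37 with the kept-probe scaling.

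Genes of fatty acid uptake and oxidation were called only downward in running mdx. Of 25 tested genes 8 fell and none rose, with a median of -0.28. The count was 10 with the all-probe scaling and 21 (median -0.53) with the kept-probe scaling. In sedentary mdx 20 of the 25 fell under the main normalization, with a median of -0.46. Between the mdx groups 22 of the 25 values were positive, none passed, and the lowest adjusted p was 0.89. Slc27a1, a fatty acid transporter of the fibre membrane, was at 8.48, 8.35, 8.53 and 8.69 in wild type and at 7.62, 7.80, 7.69, 8.19 and 8.07 in running mdx. All running arrays were below wild type and replicates 4 and 5 were nearest to it (-0.64 ± 0.15, adjusted p = 0.0024); sedentary mdx was at -1.23 ± 0.15. Ucp3, a mitochondrial carrier induced by fatty acids, was at 7.13, 7.87, 7.68 and 8.10 against 5.43, 6.36, 6.25, 6.02 and 6.72 in running mdx, without overlap (-1.54 ± 0.33, adjusted p = 0.00082). Mlycd, which removes the inhibitor malonyl-CoA, fell by 0.93 on the log2 scale, to a level between 9.70 and 9.98 on the running arrays. Fabp3, the heart-type fatty acid binding protein, fell from 13.36 ± 0.08 to 12.84 ± 0.16.

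**Figure D5:**
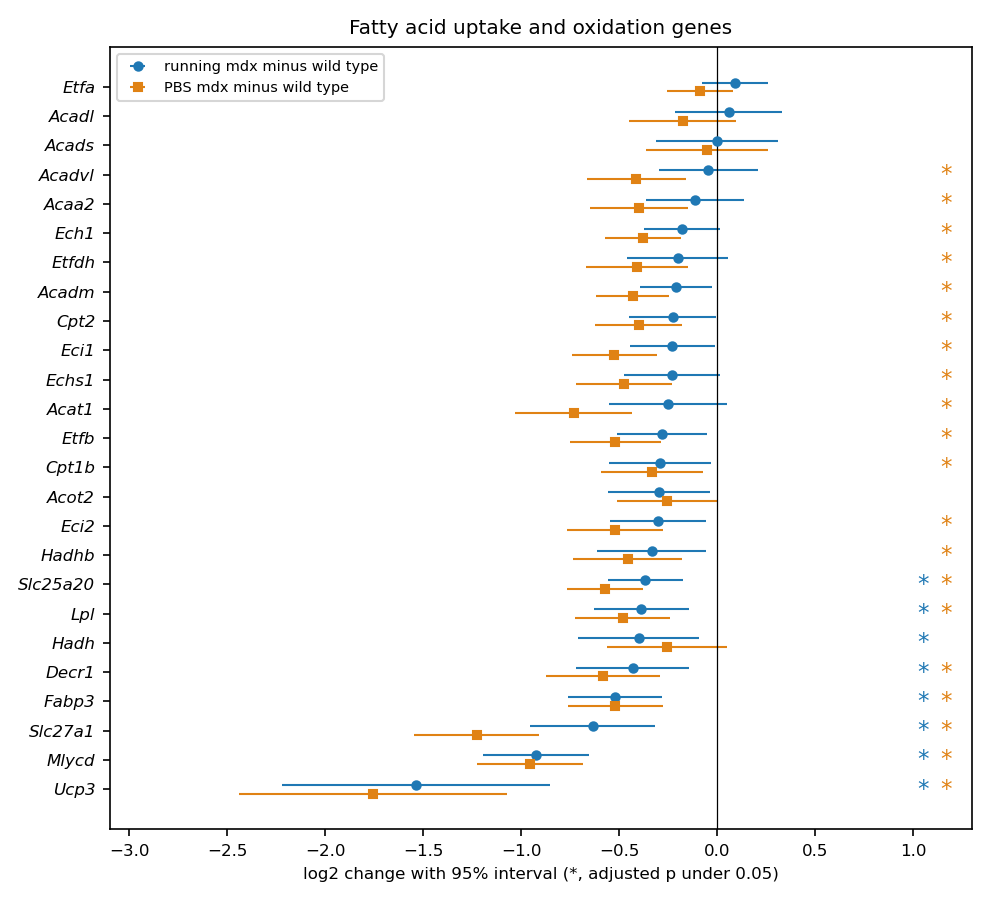
Log2 change of 25 fatty acid uptake and oxidation genes over wild type in running mdx (circles) and PBS mdx (squares), with 95% intervals from the model; asterisks of the matching colour mark an adjusted p under 0.05. In running mdx 8 genes carry an asterisk and in PBS mdx 20, with Ucp3, Mlycd and Slc27a1 at the low end in running mdx.

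The reading of the other mitochondrial lists depended on the scaling. In respiratory complex I, the entry point of the electron transport chain, 4 of 33 subunits fell and none rose. Its median was -0.06, and 29 of 33 did not pass. Over all genes 16.9% were lower and 17.8% higher. With the all-probe scaling 1 of the 33 fell (median -0.14), and with the kept-probe scaling 26 fell (median -0.41). Ndufb4, Ndufb5, Ndufb11 and Ndufa12 fell, by 0.73, 0.62, 0.57 and 0.33 on the log2 scale, and each of these calls was lost under at least 1 other setting or without at least 1 array, with adjusted p up to 0.17 for Ndufb5 without wild-type replicate 3. In complexes II to V 2 of 38 rose and 2 fell (median 0.04). With the kept-probe scaling none rose and 15 fell (median -0.33), and the all-probe median was -0.07. The calls of the genes that rose, Cox8a and Cox6a1, were lost without several single arrays, with adjusted p up to 0.13, while cytochrome c, Cycs, fell by 0.62. In sedentary mdx 7 complex I genes fell, with a median of -0.19. Among TCA cycle and pyruvate dehydrogenase genes 3 of 22 fell and 1 rose. The median was 0.02. With the kept-probe scaling 8 of the 22 fell (median -0.27), and the all-probe median was -0.01. Pdk4, a kinase that blocks pyruvate dehydrogenase and so spares glucose, was at 12.43, 11.91, 11.62 and 12.15 in wild type and at 10.50, 10.47, 9.95, 9.99 and 10.97 in running mdx. No running array reached the wild-type range (-1.65 ± 0.45, adjusted p = 0.0063), and the sedentary change was -2.08 ± 0.45. The related kinase Pdk1 fell by 0.61 and Pdk3, undetected in wild type, was at least 1.31-fold higher.

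Regulators of mitochondrial content fell in 4 of 13 tested genes and rose in none (median -0.21), or fell in 7 with the kept-probe scaling. Esrrb, an orphan nuclear receptor related to the regulators of oxidative metabolism, was at 7.20, 7.24, 7.33 and 7.50 in wild type and at 6.00, 6.11, 6.06, 6.34 and 6.08 in running mdx, separate and tight (-1.20 ± 0.15, adjusted p = 1.4e-06). Esrra fell by 0.40 and the muscle regulator Perm1 by 0.66, and Ppargc1a, the coactivator of mitochondrial biogenesis, did not pass at -0.32 ± 0.15 (adjusted p = 0.11). In glycolysis and glycogen metabolism 2 of 17 genes fell (median -0.10), or 12 with the kept-probe scaling (median -0.44). The share lower over all genes was 16.9% in the main setting. Fbp2, the muscle fructose bisphosphatase, fell from 11.23 ± 0.09 to 10.07 ± 0.26 (adjusted p = 8.9e-07), and Ugp2, which makes the sugar donor for glycogen, by 0.59.

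Aqp4 encodes a water channel in the membrane of fast fibres and was the gene that passed the test between running and sedentary mdx. It was at 7.94, 7.96, 7.55 and 7.70 in wild type and at 7.39, 7.46, 7.14, 7.89 and 7.62 in running mdx, with overlap (-0.29 ± 0.13, adjusted p = 0.084, interval -0.56 to -0.02). In sedentary mdx it ranged from 6.37 to 6.87, below both other groups (-1.19 ± 0.13, adjusted p = 1.5e-07). Running exceeded sedentary mdx by 0.90 ± 0.12 (adjusted p = 0.0011), a call that a model without the other groups did not make (adjusted p = 0.11). In its list of ion and water channels 4 of 15 fell in running mdx and none rose (median -0.31), or 1 with the all-probe and 8 with the kept-probe scaling. In sedentary mdx 9 of 15 fell (median -0.51). The potassium channel Kcnc4 fell by 0.83, from 11.15, 11.08, 11.20 and 11.67 to 10.13, 10.37, 10.44, 10.58 and 10.72.

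Atrophy genes moved both ways, with 5 of 16 that rose and 3 that fell (median -0.20, or 0.04 with the all-probe scaling); with the kept-probe scaling 4 rose and 5 fell. The muscle ubiquitin ligases fell. Fbxo32, atrogin-1, was at 11.73, 11.37, 11.68 and 11.79 in wild type and at 10.08, 9.71, 10.02, 10.35 and 10.20 in running mdx, all below wild type (-1.57 ± 0.22, adjusted p = 7.4e-06). Trim63, MuRF1, fell by 0.89. The metal-binding metallothioneins, which the list also holds, rose. Mt1 was at 11.12, 10.71, 11.28 and 10.87 in wild type and at 12.90, 13.45, 13.13, 13.45 and 13.46 in running mdx, 4.88-fold higher (2.29 ± 0.27), and Mt2 rose by 1.27 ± 0.31, with the caution that probes for these close relatives may read both. Cdkn1a, the cell cycle inhibitor p21, rose by 1.59 ± 0.18.

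Antioxidant and oxidant genes moved both ways. Of 23 tested genes 5 rose and 8 fell (median -0.05), or 3 and 7 with the all-probe and 3 and 11 with the kept-probe scaling. Nqo1, a quinone reductase and a target of NRF2, was at 8.10, 8.26, 7.97 and 7.72 in wild type and at 7.02, 7.00, 6.97, 6.87 and 6.87 in running mdx (-1.07 ± 0.11, adjusted p = 9.9e-08). The running arrays were nearly level and all below wild type. Cyba and Ncf4, subunits of the NADPH oxidase of phagocytes, rose, Cyba from 8.23 ± 0.17 to 9.94 ± 0.30 and Ncf4 to at least 2.43-fold of a wild-type level that was not detected. The macrophage list mean given above rose on the same arrays, and its part in these 2 genes was not tested. Gpx1, a glutathione peroxidase, rose by 0.83 ± 0.14, and the haem oxygenase Hmox1 was at 0.29 ± 0.18 (adjusted p = 0.21).

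The remaining lists held fewer or mixed changes. Of 14 cell cycle genes 9 rose and Aurka, a mitotic kinase, fell by 1.33 (median 0.90). The 9 include Cdkn1a, the inhibitor named above, so they are not all genes of dividing cells. The calls of Birc5 and Cdc20 were each lost under at least 1 other setting. Without the 4 arrays richest in hepatocyte transcripts 6 of the 14 rose. Immediate early genes, many of them transcription factors, are switched on within minutes of a stimulus. Of 14 tested 7 rose and none fell (median 0.51), with Fos at 2.14 ± 0.40, Egr1 at 1.79 ± 0.23 and Junb at 1.51 ± 0.21. In the unfolded protein response 5 of 13 rose and Atf4 fell by 0.46 (median 0.31), or 3 rose and 4 fell with the kept-probe scaling. Its factor Xbp1 was at 10.90, 10.87, 10.71 and 10.81 in wild type and between 11.19 and 11.32 in running mdx (0.43 ± 0.10, adjusted p = 0.00098), but its call was lost with the kept-probe scaling (0.19, adjusted p = 0.095). In sedentary mdx it was at 0.67 ± 0.10. The protein disulfide isomerases Pdia3 and Pdia4 rose by 0.85 ± 0.17 and 0.62 ± 0.15. Of 22 autophagy genes 6 fell and Map1lc3a rose by 0.83 ± 0.14, its other probe moving the other way. The list's median was -0.11. With the all-probe scaling 1 fell (median 0.00), and with the kept-probe scaling 12 fell (median -0.26).

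The circadian clock list had a median of -0.43. Of its 14 tested genes 2 fell, Ciart (-1.65 ± 0.39) and Rora (-0.64 ± 0.17), or 5 with the kept-probe scaling. In sedentary mdx 7 fell, with a median of -0.69; the hour of sampling is not given in the sources used here. Of 19 endothelial and angiogenesis genes 3 rose and 1 fell (median 0.19), while 6 rose with the all-probe and 1 with the kept-probe scaling. The one that fell was Vegfa, the vascular growth factor, at 10.79, 10.92, 10.62 and 10.77 in wild type and 10.09, 10.22, 10.18, 10.33 and 10.25 in running mdx (-0.56 ± 0.13, adjusted p = 0.0019). Its arrays did not overlap. The apelin receptor Aplnr rose by 1.20 ± 0.25, and the calls of the other 2 that rose, Angpt1 and Esam, at adjusted p of 0.049 and 0.05, were lost without several single arrays, with adjusted p up to 0.14.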

How the data were processed

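Total RNA from powdered gastrocnemius was labelled as cRNA and hybridised to Illumina bead arrays, per the labels' protocols. The deposited table held intensity values, 1 bead signal per probe and array, not normalized. Beside them stood detection p-values against negative control beads, per the file headers. A deposited matrix of log2 values matched quantile-normalized, uncorrected signals on the log2 scale to within 0.005, and such values served as the alternative without that correction. The software behind these files is not given in the sources used here. All 24 arrays had a group, and 0 columns were left unused.

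Signals were corrected by normexp (offset 16, control beads estimated through the detection p-values), quantile normalized and log2 transformed in limma 3.58.1 (R 4.3.3). Probes detected (p under 0.05) on at least 4 arrays were kept, 12623 of 25697. Of all probes 23978 had 1 symbol in the platform annotation and 1719 had none here, and 23962 symbols matched a RefSeq gene. Each of the 8945 genes was represented by its brightest probe on average, and 2216 genes had more than 1 kept probe. A linear model with a mean for each of the 5 groups over 24 arrays was moderated by empirical Bayes. Tests were two-sided, and Benjamini-Hochberg adjustment ran over all 8945 genes with a limit of 0.05. The test was checked on simulated data. For a gene undetected throughout a group, the fold uses that group's detection limit and reads "at least". The number of arrays limits the precision: the median standard error of a change was 0.14. Nothing but the labels says that the arrays are separate animals, and p-values measure the spread between these arrays.

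The comparison, the 39 gene lists (718 genes, 549 tested) and the genes named were chosen with earlier results of these data known. Lists are described by counts and medians, with no set test. Named genes were the 15 largest changes in each direction without overlap, up to 4 called members per list, the gene called between the mdx groups and a preset group of muscle genes. Members named because few of a list did not pass, Il1r1, and the genes shown by array were picked after their values were seen. Spp1, Cd68, Myh2 and Myh3 were not analysed here. Other settings were no background correction, 2 median scalings (the one over kept probes was added after seeing the data), other filters, the mean of probes, a model of only the compared groups, robust moderation, covariates, the replicate block and each array left out.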

Additional observations from a re-analysis of the deposited data

Results flagged for a closer look

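Arrays that lay apart from the rest of their group were sought in 114 groups of values, the genes shown by array and the cell type marker lists in wild type and running mdx, with the limit at which chance marks about 5% of groups. It marked 7, near that share. Running replicate 5 accounts for 4 of them. There Chrng stood at 7.51 where the other 4 arrays spanned 9.26 to 9.63, Chrna1 at 9.75 (10.46 to 10.74), the complement gene C1qb at 10.29 (11.09 to 11.32) and Mlycd at 9.70 (9.93 to 9.98). Sln was at 12.09 on running replicate 4 (12.53 to 12.61). In wild type, Anxa2 was at 11.39 on replicate 1 (11.16 to 11.18) and Lama2 at 7.61 on replicate 4 (7.37 to 7.41). The calls of these 7 genes between running mdx and wild type were kept without any single array. The macrophage, complement, regeneration and class II lists were not among the groups searched. Running replicate 5 had the lowest mean of its group in each of them (8.31, 8.11, 9.71 and 8.67). It did not lie low throughout, as its circadian clock mean of 9.00 was the highest of the group. What sets this array apart was not tested. The change of Aqp4 against wild type differed between the running and the sedentary mdx mice, by 0.90 ± 0.12 in the test of that difference.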

How the results depend on the processing

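The number of genes higher in running mdx ranged from 1391 to 1571 when single running or wild-type arrays were left out (1595 with all), and the number lower from 1223 to 1518 (1513 with all). The number lower moved with the scaling, to 691 with medians over all probes and 2656 with medians over the kept probes, where 2162 and 1263 were higher; the cause was not tested. Under the latter the mechanical stress gene Fhl1 turned from 0.30 to -0.0612 (adjusted p = 0.68) and Pvalb to -0.37 (adjusted p = 0.0056). In a model restricted to the compared groups, which has fewer arrays, 0 genes passed between running and sedentary mdx by limma, against 1, and 297 had an unadjusted p under 0.05 with all groups. Without the 4 arrays richest in hepatocyte transcripts 1329 genes were higher and 1168 lower, from fewer samples. Of 148 named genes that passed, 28 did not pass under at least 1 other setting. The remaining 120 passed under every setting in which they were tested. Some named genes were not tested under the stricter detection filter (p under 0.01). With the replicate block 1730 were higher and 1732 lower. Same-numbered running and wild-type arrays deviated together with correlations of 0.07, 0.65, 0.06 and 0.37. Between running and PBS mdx these were 0.06, -0.12, 0.12, -0.25 and 0.18. Raw median signal was lower on the last replicate than on the first, 81.25 against 95.91 in running mdx and 72.32 against 90.55 in wild type. The labels give only a replicate number, and what it stands for was not tested. The main model does not use it. Depth does not apply to these arrays; genes near background, such as Utrn, carry the least information.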
